A study of Mus musculus with 8 samples.

Results

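Transcript levels in mouse mammary tumours driven by activated ErbB2 were set against a common reference RNA, to describe which genes stood above or below that reference whatever the Stat3 genotype of the tumour. All 8 samples of the series entered. In 5 of them the RNA came from a single tumour of a Stat3flx/flx mouse and in 3 from a pool of 5 tumours of Stat3wt/wt mice, and every animal carried the MMTV-NIC transgene. All tumours came from virgin females, 6 weeks after the first palpation of the growth. They are called floxed tumours and wild-type pools below. On each array the tumour RNA carried the dye Cy5 and the Stratagene universal mouse reference the dye Cy3. The dyes were never swapped, so a bias of a probe for one dye and a true difference from the reference cannot be told apart. Of 22865 genes tested, 1674 were called higher and 1700 lower than the reference in both groups.

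MMTV-NIC expresses an activated form of Neu (ErbB2), a receptor tyrosine kinase, together with the recombinase Cre from the same transcript. The promoter is active in mammary epithelium, so Cre deletes floxed Stat3 in the epithelial tumour cells and not by design in vessels, fibroblasts or immune cells of the same tumour. Luminal cells line the mammary ducts and alveoli and make milk, while basal myoepithelial cells contract around them. A universal reference RNA is a pool from cultured cell lines of several tissue origins, so a ratio against it compares a whole tumour with a mixture of cultured cells. In bulk RNA, more cells of a type and more transcript per cell cannot be told apart.

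Each value below is the log2 ratio of tumour over reference for the brightest probe of a gene. A log2 ratio of 1 is 2-fold above the reference and a ratio of -1 is 2-fold below it. The probes are 60 bases long. The first 30 bases are given for Muc15, which had the largest ratio, for 3 regulators of epithelial or mesenchymal identity, for Kit and the fetal gene Igf2bp3, which were far from the reference in every sample, and for the 2 genes that bear on the mouse model, Stat3 and Erbb2.
Muc15, chr2:110589900-110589959: gccattttgcactacagtcaaacatactaa
Elf5, chr2:103301588-103301647: tgtctagtgaccggcactgaatagcaatgc
Kit, chr5:75074515-75074574: tgtggtcatgtacgagactgtcaccagtta
Tfap2c, chr2:172351014-172351073: tttatgcgagtgcacacagggtattgaaac
Igf2bp3, chr6:49045761-49045820: ttgcctcattgtgtttcaggattaacttct
Snai2, chr16:14250104-14250163: gtgaggtacggttaatagccacgcctatat
Stat3, chr11:100997323-100997382: cactctgtgagctgataccccaggctggga
Erbb2, chr11:98545828-98545887: ggctatgccaggaacgtgccctgaggaacc
The coordinates are those of the array files, on mouse build mm7. The Igf2bp3 and Stat3 probes lie on the minus strand and the others on the plus strand. Whether a probe lies in a coding exon or in an untranslated region was not analysed here.

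The arrays were alike in brightness. The median tumour signal before background subtraction lay between 642 and 891 across the 8 arrays, against median backgrounds of 47 to 58. The share of probes well above background was 71.7% to 77.3% for tumour RNA and 72.4% to 82.0% for reference RNA. The number of arrays limits the precision. Nothing in the labels says whether the pools share animals with each other, and the p-values reflect only how these samples scatter against 1 reference RNA, whose own spread between preparations does not enter.

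The 2 genes tied to the model were examined first. Erbb2 gave log2 ratios of 0.92, 0.95, 0.76, 0.90 and 0.88 in the floxed tumours and of 0.51, 0.95 and 1.42 in the wild-type pools, close to 2-fold above the reference and overlapping between the groups. It did not pass the 2-fold test, and a second Erbb2 probe gave a mean of 1.70. Whether either probe reads the transcript of the Neu transgene was not tested. Stat3 gave -1.32, -1.33, -1.48, -1.22 and -1.12 in the floxed tumours and 0.12, 0.86 and 1.27 in the pools, so the groups did not overlap and lay on opposite sides of the reference. The difference was -2.05 on the log2 scale (limma adjusted p = 0.106), and a second Stat3 probe had a mean of 0.17. The position of these probes relative to the floxed exons was not analysed here. Xist, the RNA of the inactive X chromosome, had means of 1.88 ± 0.77 (SD, n = 5) and 1.99 ± 0.19 (SD, n = 3), above the reference in all 8 samples. It was not called, and without floxed tumour 1 it was called higher at 2.08. The Y-linked genes Ddx3y, Eif2s3y and Kdm5d were among the lowest of all genes, as given below.

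A gene was called when both groups passed limma's treat test against a 2-fold difference at an adjusted p of 0.05 and its ratio was past 2-fold on all 8 arrays. The higher calls were 7.32% of the genes tested and the lower calls 7.43%. Each count of called genes in a list below is to be read beside these 2 shares. In floxed tumours alone 9.25% of genes passed the test above the reference and 9.24% below it, and in wild-type pools alone 8.62% and 8.34%. The higher calls had a median log2 ratio of 2.89 (7.41-fold) and the lower calls one of -2.30 (4.94-fold), against 0.02 over all genes tested. At a 4-fold threshold 753 genes (3.29%) were called higher and 557 (2.44%) lower. Past 16-fold on all 8 arrays stood 246 higher genes and 57 lower genes, so the far tail was longer above the reference than below it. Both channels were well above background on all 8 arrays for 1435 of the higher and 1344 of the lower genes. For 75 higher genes no array had a reference signal well above background, and for 107 lower genes the tumours were not. A fold of such a gene is a lower bound, computed against the dimmest signal well above background or the probe's own signal, whichever was higher.

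The call rule left some genes just outside. Another 93 genes above and 85 below passed both tests but were not past 2-fold on every array. Just inside on the higher side, Mtus1 had 1.00 as its lowest ratio, and just outside, Gstt1 had 0.991. On the lower side Pdgfrl was just inside, with -1.001 as its highest ratio, and Ly9 just outside with -0.998.

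None of the 3374 called genes passed limma's test of floxed tumours against wild-type pools at an adjusted p of 0.05, and 167 (4.95%) had an unadjusted p under 0.05, beside 4.84% of all genes tested. Of these 167 genes, 118 were higher calls, with floxed tumours above the pools in 40, and 49 were lower calls, with floxed tumours above the pools in 25. Over all 22865 genes a single gene passed (0.00437%). It was Dppa1 (-0.04 to 2.69 across arrays, limma adjusted p = 0.0489), which was in neither set of calls. A p that misses the threshold does not show that the groups were alike. The nearest called gene was Cyb5r2, a cytochrome b5 reductase, at 2.38 ± 0.12 in floxed tumours (SD, n = 5) and 4.22 ± 0.53 in pools (SD, n = 3) (limma adjusted p = 0.106). Without floxed tumour 4 another called gene, the serotonin receptor Htr5b, passed the genotype test (mean ratio 4.82, limma adjusted p = 0.000915).

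Muc15, a membrane mucin found in milk fat globules, had the largest ratio of all, with 7.43, 7.84, 8.46, 8.24 and 8.13 in the floxed tumours and 8.15, 7.58 and 8.65 in the pools, a mean 269-fold above the reference. Every sample was past 7, and the groups overlapped. Behind it came Mansc1 (8.05), the sialyltransferase St8sia6 (7.92), the lysine-degrading enzyme Aass (7.58) and the adhesion molecule Chl1 (7.57). Igfbp5, an insulin-like growth factor binding protein made by mammary epithelium, had a mean of 7.50, and Gjb2, the gap junction protein connexin 26, one of 7.44. The glycosyltransferase Galnt3 (7.37), the adhesion molecule Ceacam2 (7.34), Palmd (7.28), Prom1 (7.21), Kit (7.21), Tfap2c (7.15), the claudin Cldn10 (7.12) and the carbonic anhydrase-related Car8 (7.05) made up the 15 largest. The reference signal of Car8 was dim on all 8 arrays, so Car8 was at least 129-fold higher in tumours, and that of St8sia6 and Prom1 was well above background on 2 and 1 of 8. Second probes of Ceacam2 and Palmd gave only 0.24 and 0.72. Binding of the Ceacam2 probe to transcripts of its close relatives was not tested.

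**Figure D1:**
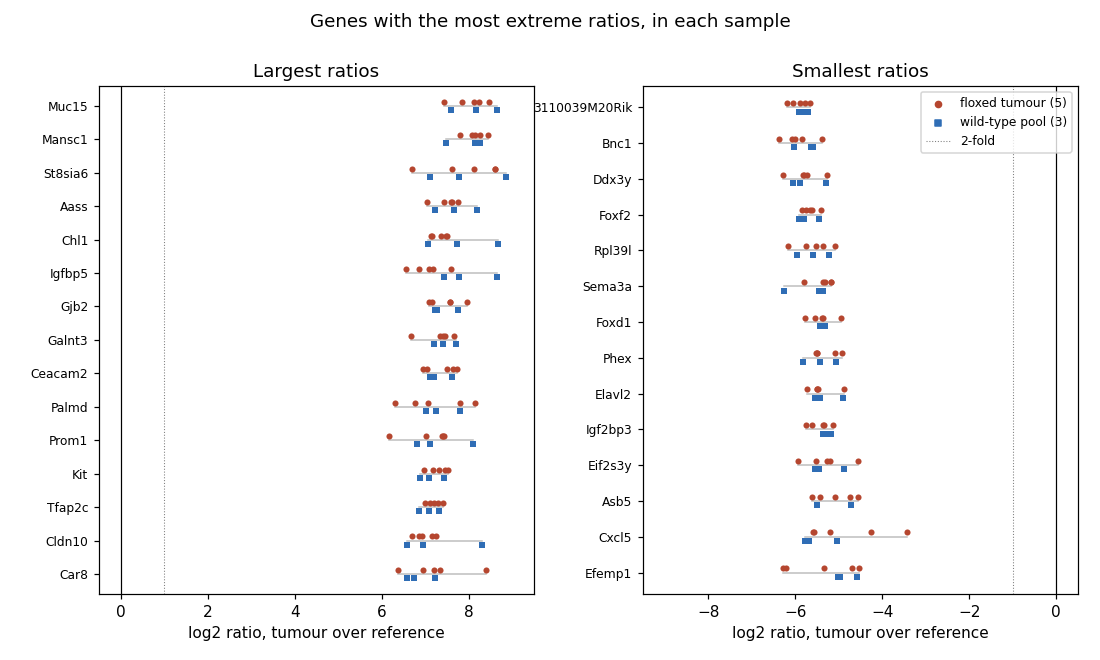
Log2 ratio of tumour over reference (horizontal axis) in each of the 8 samples for genes with the largest (left) and smallest mean ratios (right) among called genes; circles are floxed tumours, squares wild-type pools, grey lines span the range and dotted lines mark 2-fold. Every point of Muc15 lies between 7.43 and 8.65 and every point of Foxf2 between -5.92 and -5.41, and the groups overlap in each of these genes.

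Kit, a receptor tyrosine kinase of luminal progenitors, gave 7.51, 6.98, 7.32, 7.17 and 7.45 in floxed tumours and 6.87, 7.08 and 7.44 in pools. Tfap2c, a transcription factor of the luminal lineage, averaged 7.20 ± 0.16 in floxed tumours (SD, n = 5) and 7.09 ± 0.23 in pools (SD, n = 3), and both genes were spread over less than 1 log2 unit. Elf5, the transcription factor that directs alveolar differentiation, gave 7.41, 6.49, 6.54, 6.65 and 6.63 in floxed tumours and 6.52, 6.61 and 7.01 in pools. All 8 values were above 6, with floxed tumour 1 standing above the rest.

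Of 29 measured luminal genes 15 were called higher and 1 lower, with a list median of 2.25 across groups and sample medians from 1.75 (floxed tumour 4) to 3.95 (pool 3). The luminal keratins Krt8 (2.25) and Krt18 (3.61), the adhesion molecule Epcam (4.14), the ErbB2 partner Erbb3 (4.72) and the progenitor marker Prom1 were higher. The luminal genes were not uniformly above the reference. Krt19, another luminal keratin, gave -3.33, -3.07, -3.77, -3.92 and -3.81 in floxed tumours and -3.52, -3.76 and -0.34 in pools, far below the reference except in pool 3, and was not called with all samples. Without pool 3 it was called lower, at -3.61. Wnt4, a ligand that acts downstream of progesterone, was called lower at -2.87. The hormone-response genes Foxa1 and Esr1 ranged from -1.88 to 0.75 and from -1.60 to 1.25 and were not called.

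Genes that hold epithelial cells together had the largest share of higher calls among the 38 lists. Of 30 measured junction genes 26 were called higher and none lower, with a list median of 4.11 against 0.02 over all genes and sample medians of 3.76 to 4.40. Within the slides of pools 3, 2 and 1 the median was 4.21, 3.86 and 4.16. The desmosomal cadherins Dsg2 (7.04) and Dsc2 (5.44) and the claudins Cldn1 (5.39), Cldn3 (5.24), Cldn4 (4.06), Cldn7 (4.24) and Cldn8 (6.26) were all higher. Of 4 other Dsg2 probes 3 were called higher, and the lowest of the 4 had a mean of 0.44. Cldn3 was even across samples and gave 5.54, 5.17, 5.29, 5.35 and 5.21 in floxed tumours and 4.98, 5.14 and 5.36 in pools. For Cldn8 the reference signal was dim on all 8 arrays, so its fold is a bound of at least 71.0, and with plain background subtraction it lost its call, at 8.92. Among the 4 genes not called, Spint2 was between 3.65 and 4.43 on the 7 arrays that measured it and failed the rule only for its missing value.

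The transcription and splicing factors that set up these genes were high as well. Of 19 measured, 14 were called higher and 1 lower, and the list median was 3.91. Ehf, an epithelial Ets factor, had means of 6.76 ± 0.28 (SD, n = 5) and 6.69 ± 0.15 (SD, n = 3), and its other 2 probes were also called higher. The grainyhead factors Grhl1 (5.51) and Grhl2 (4.31), which activate junction genes, and Esrp1 (5.92), which directs epithelial splicing, were higher in both groups. Elf3, another epithelial Ets factor, went the other way without being called, from -2.19 to -0.31.

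The E-box CACCTG is the sequence that the repressors of epithelial genes, such as the Snail and Zeb factors, are known to bind. It was looked for on both strands, as CACCTG or CAGGTG, in the 250 bases before the annotated start of genes with a single RefSeq start (build GRCm38.p6). It was found upstream of 6 of 12 junction genes and 1 of 12 mesenchymal genes with such a window, beside 26.1% of 755 genes called higher, 14.4% of 770 called lower, 1631 of 10190 genes tested and 17.2% of all 32851 windows. The median GC content of these windows was 58.4% for the higher calls, 57.6% for the lower calls, 58.4% for the genes tested, 62.0% for the junction genes and 60.6% for the mesenchymal genes. Another 2 motifs were searched on both strands. AACCNGGTT was found in none of the 12 junction or 12 mesenchymal windows. It was in only 29 of 10190 genes tested (0.285%), too rare for 12 windows to tell anything. GCCNNNGGC was found in 3 of 12 junction and 5 of 12 mesenchymal windows, 18.8% of higher calls, 19.7% of lower calls and 18.4% of genes tested. These are counts of letters in a window and show no binding. The 100 bases before the start are printed for 3 junction genes called higher, with each E-box in capitals, because they show how the motif is placed.
Ap1m2, chr9:21312334-21312433, minus strand: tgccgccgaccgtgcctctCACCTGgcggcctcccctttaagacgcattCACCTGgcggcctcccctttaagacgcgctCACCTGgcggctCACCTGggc
Rab25, chr3:88548280-88548379, minus strand: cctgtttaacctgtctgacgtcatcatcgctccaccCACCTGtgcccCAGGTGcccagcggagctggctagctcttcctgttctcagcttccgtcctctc
Epcam, chr17:87635879-87635978, plus strand: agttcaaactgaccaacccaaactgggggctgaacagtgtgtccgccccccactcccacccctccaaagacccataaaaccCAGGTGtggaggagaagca
Ap1m2, an adaptor that sorts proteins to the basolateral membrane, carries 4 copies and had a mean ratio of 5.32. Rab25, a small GTPase of epithelial recycling, carries 2 and had a mean of 5.20.

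**Figure D2:**
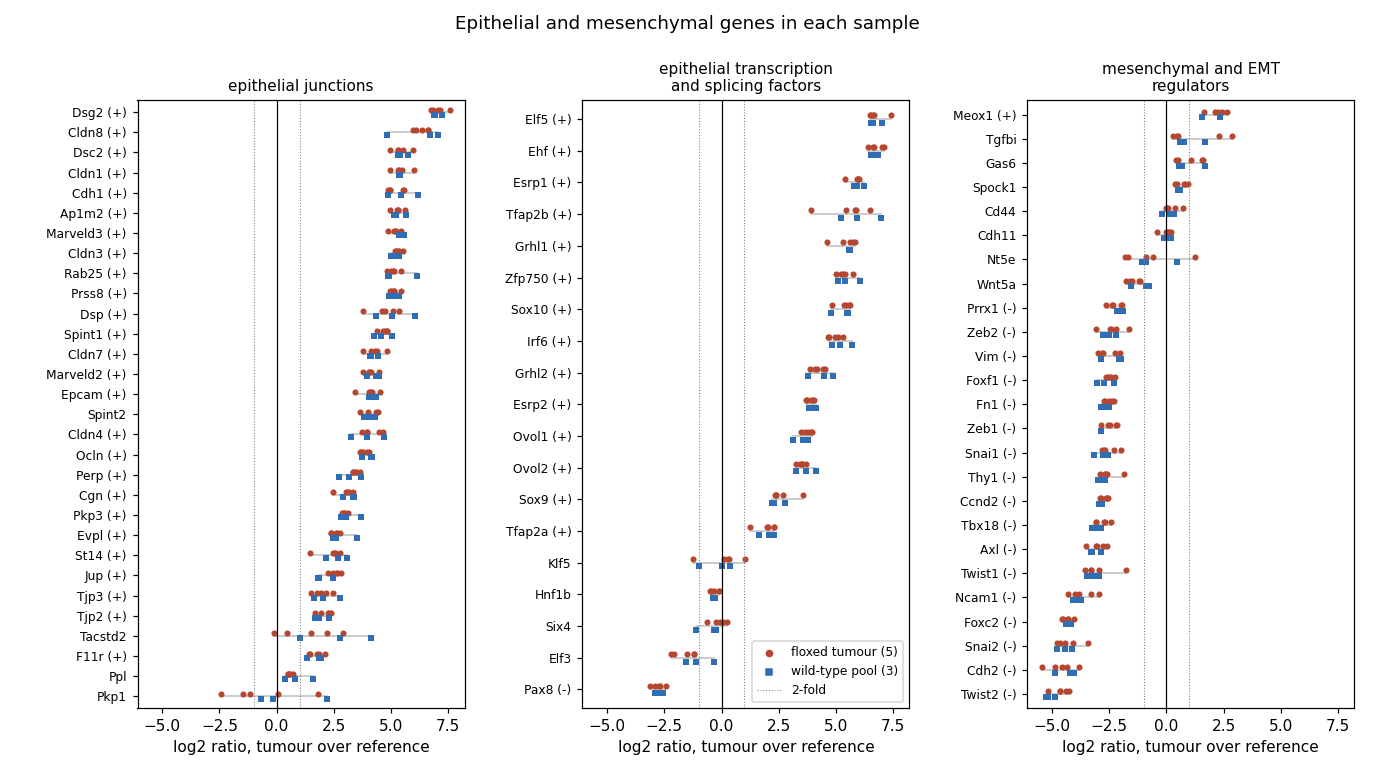
Log2 ratio of tumour over reference (horizontal axis) in each sample for the measured genes of 3 lists, ordered by mean ratio; circles are floxed tumours, squares wild-type pools, dotted lines mark 2-fold, and (+) and (-) mark genes called higher and lower. Of the junction genes 26 of 30 are called higher, while 17 of 25 mesenchymal genes are called lower, from Twist2 at -4.86 upwards.

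The mesenchymal list stood on the other side of the reference. Of 25 measured genes 17 were called lower and 1 higher, and the list median was -2.59, with sample medians from -2.88 to -2.01. The repressor Snai2 gave -4.09, -3.43, -4.76, -4.64 and -4.42 in floxed tumours and -4.41, -4.80 and -4.11 in pools. Its relatives in function followed, with Twist2 at -4.86, Zeb1 at -2.65 and Zeb2 at -2.43. Zeb1 gave -2.85, -2.86 and -2.84 in the pools and between -2.88 and -2.15 in the floxed tumours. The intermediate filament Vim (-2.44) and the neural cadherin Cdh2 (-4.49) were also lower. Second probes of Vim and Cdh2 gave -1.27 and -0.61, lower in sign but not called. Wnt5a, a non-canonical Wnt ligand, lay between -1.79 and -0.76 and was not called.

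Basal and myoepithelial genes showed no common direction. Of 24 measured, 1 was called higher and 4 lower, and the median was -0.16. The basal keratins Krt14 and Krt5 and the basal transcription factor Trp63 were highest in pool 3, at 0.40, 2.45 and 2.06, where the other 7 samples reached at most -1.48, 1.10 and -0.54. Without pool 3, Krt14 was called lower at -1.70. Integrin Itgb4 (3.84), of hemidesmosomes, was called higher and the contractile protein Tagln (-2.52) lower. Actin Acta2 was -0.97 to 0.92 by its brightest probe and -2.97 to -1.42 by the means of its other 3 probes, so its side of the reference is not settled.

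Milk genes were high but varied between tumours. Of 27 measured genes 14 were called higher and none lower, with a median of 2.57. The beta-casein gene Csn2 gave 7.19, 6.86, 3.55, 6.50 and 5.05 in floxed tumours and 5.33, 6.88 and 8.84 in pools, and Csn1s1, an alpha-casein, was between 5.27 and 8.37. The reference signal was dim on all 8 arrays for both, which makes them at least 77.8-fold and 93.0-fold higher. With plain background subtraction Csn2 lost its call, at 10.49. Csn3, the kappa-casein, had a mean of 5.85, and the antimicrobial milk proteins Ltf and Lcn2 had means of 4.74 and 5.57. Floxed tumour 5 had the lowest median of the list, 1.25, and pool 3 the highest, 4.37. Wap, the whey acidic protein, was not called: the floxed tumours gave 0.35, 0.40, 0.32, 1.88 and 0.19 and the pools 2.19, 2.17 and 5.80. The groups did not overlap for Wap, and their difference of -2.76 did not pass (limma adjusted p = 0.96).

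ErbB receptors, ligands and adaptors were mixed. Of 33 measured, 8 were called higher and 2 lower, and the median was 0.64. Erbb3, which has little kinase activity of its own and signals as a partner of ErbB2, gave 4.12, 4.62, 4.80, 4.76 and 4.96 in floxed tumours and 4.36, 4.65 and 5.34 in pools, and its 4 other probes were called higher too. By their brightest probes Egfr (0.16) and Erbb4 (0.64) were near the reference and not called. The means of 4 other Egfr probes ran from -0.57 to 1.88 and those of 2 other Erbb4 probes from 0.81 to 1.90. Egfr was above the rest in floxed tumour 1 (1.18). Among ligands, Egf was higher (4.39) and Ereg, epiregulin, lower (-4.09).

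**Figure D3:**
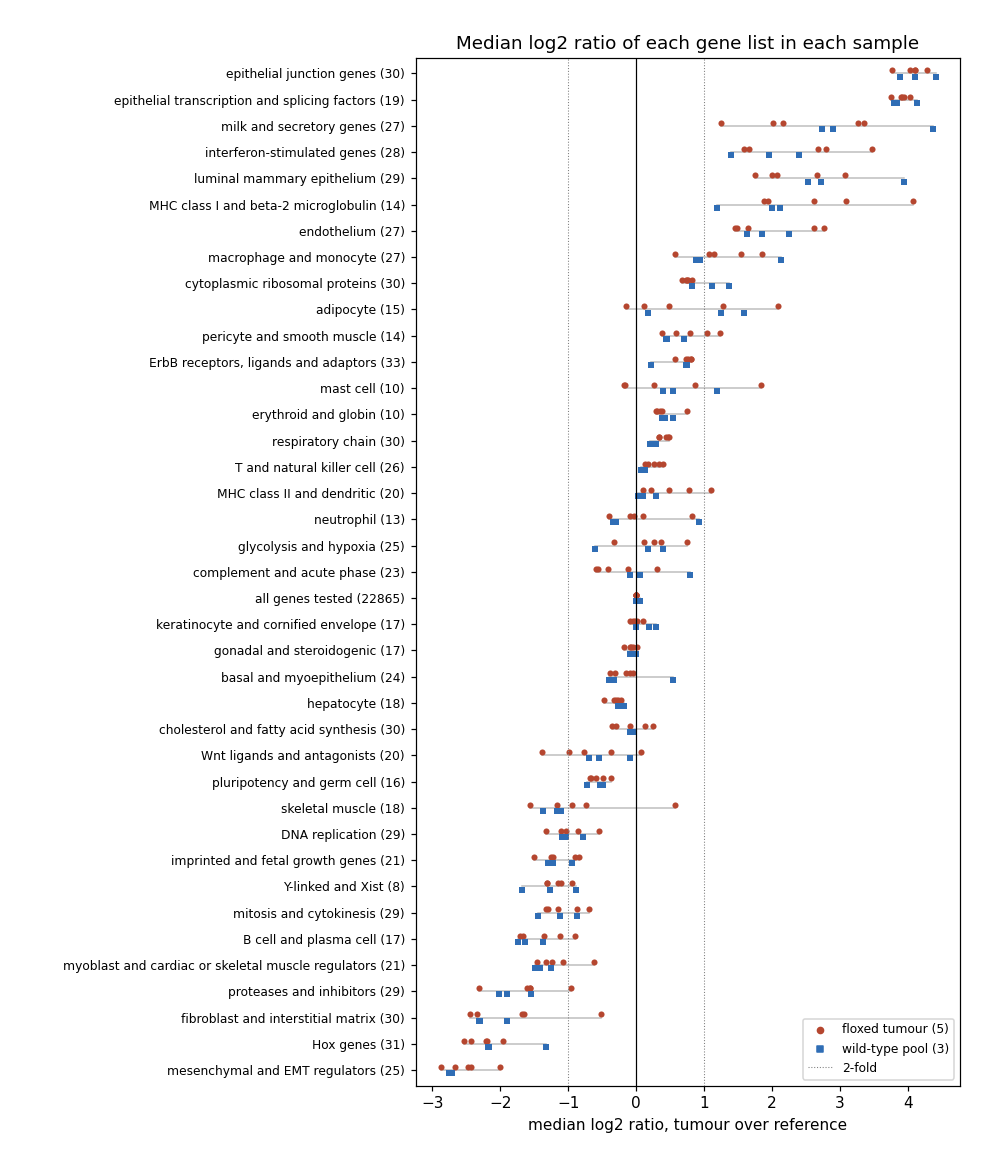
Median log2 ratio of tumour over reference (horizontal axis) over the measured genes of each of the 38 lists and over all 22865 genes tested, in each sample; circles are floxed tumours, squares wild-type pools, dotted lines mark 2-fold and the number of genes stands beside each name. Junction genes lie highest, at 3.76 to 4.40, mesenchymal regulators lowest, at -2.88 to -2.01, and all genes at about 0.

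Of 27 measured endothelial genes 12 were called higher and 1 lower, with a median of 1.95 and sample medians of 1.46 to 2.76. Kdr, the main receptor for VEGF, had means of 5.22 ± 0.36 (SD, n = 5) and 5.12 ± 0.58 (SD, n = 3). The endothelial cadherin Cdh5 (4.46), the sialomucin Emcn (5.58) and the phosphatase Ptprb (4.52) were higher too. A second Ptprb probe had a mean of 1.10 and was not called. Pecam1 (0.48) and the angiopoietin receptor Tek (0.24) were not called. Among 14 pericyte and smooth muscle genes 4 were higher and 3 lower. The pericyte genes Rgs5 (4.91), Kcnj8 (5.08) and Abcc9 (5.32) were higher, and the growth factor receptor Pdgfrb (-1.18) was not called.

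Genes of fibroblasts and interstitial matrix lay mostly below the reference. Of 30 measured, 12 were called lower and 2 higher, and the median was -1.83. Pdgfra, a receptor of fibroblasts, had means of -4.10 ± 0.53 (SD, n = 5) and -4.10 ± 0.29 (SD, n = 3), and Lox, which cross-links collagen, had a mean of -4.15. The proteoglycan Dcn gave -1.97, -1.59, -3.12, -4.57 and -3.48 in floxed tumours and -2.62, -3.01 and -3.12 in pools, lower in every sample and with a wide range. Serping1, an inhibitor of complement, was the highest of the list at 4.82. Col1a1, Col1a2 and Col3a1, the chains of the main fibrillar collagens, were not called. Floxed tumour 2 gave 1.55, 0.98 and 0.64 for these 3 genes, and the highest of the other samples gave -1.16, -1.05 and -1.54. Without floxed tumour 2, Col1a1 (-2.22) and Col3a1 (-2.09) were called lower. Dcn lost its call without pool 2 (-2.91) or pool 3 (-2.88). A second Dcn probe had a mean of -0.96 and was not called.

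Of 15 adipocyte genes 3 were called higher and 1 lower. Fabp4, a fatty acid carrier, was higher at 3.77, and Thrsp, a regulator of fat synthesis, at 5.30. The adipocyte hormone Adipoq ranged from -0.65 to 4.18 and Cfd from -0.22 to 6.37. The sample medians of this list ran from -0.16 in floxed tumour 4 to 2.09 in floxed tumour 1. Pool 1 (1.59), floxed tumour 2 (1.28) and pool 2 (1.25) were also high, and the other samples were at most 0.48. Of 18 skeletal muscle genes 4 were called lower and 1 higher, the oxygen carrier Mb (3.99), and floxed tumour 5 had the highest sample median, 0.57, where the other 7 were between -1.56 and -0.74. The part of fat or muscle tissue in the samples was not tested.

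Macrophage genes were split between strong and absent differences. Of 27 measured, 10 were called higher and 2 lower, and the median was 1.07. Arg1, the arginase of alternatively activated macrophages, had means of 6.59 ± 0.26 (SD, n = 5) and 6.29 ± 0.15 (SD, n = 3), and the complement components C1qa (5.01) and C1qb (4.79), made by tissue macrophages, were higher. The pan-macrophage genes Csf1r (-0.32) and Adgre1 (-0.49) were near the reference and Cd68 (-1.57) was called lower. The call of Cd68 was lost without floxed tumour 1, 4 or 5 or without any 1 pool, at -1.63 to -1.51, with slide as a fixed block (-1.58), and under median centring, no filter and the authors' deposited table.

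T and natural killer cell genes were mixed, while B and plasma cell genes lay mostly below the reference. Of 26 T and natural killer cell genes 3 were called higher and 8 lower. The median of this list was 0.29, with 15 means above 0 and 11 below. The T-lineage transcription factors Tcf7 (-4.90) and Lef1 (-4.74) and the receptor subunit Cd3g (-3.01) were lower, while Cd3e (-0.29) and Cd4 (0.19) were near the reference, and a second Cd3e probe gave -2.18. Gzmb, granzyme B of cytotoxic cells, was higher at 4.45. Of 17 B and plasma cell genes 7 were called lower and none higher, with a median of -1.34 and 12 means below 0. Ms4a1, which encodes CD20, gave between -5.07 and -4.80 on all 8 arrays, and its second probe had a mean of -4.88. Pou2af1 (-4.45), Jchain (-3.60) and Cd79b (-3.59) were lower too.

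Of 13 neutrophil genes 2 (15.4%) were called higher, Ltf among them, and 1 (7.69%) lower, Mmp9. Of 10 mast cell genes only Kit was called, and Kit is also a gene of luminal progenitors.

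Interferon-stimulated and class I genes had list medians above the reference and varied between samples, while class II genes were closer to it. Of 28 interferon-stimulated genes 10 were called higher and none lower, with a median of 2.32 and sample medians from 1.40 (pool 3) to 3.47 (floxed tumour 1). The GTPase Iigp1 ranged from 4.37 to 9.01, and the chemokine Cxcl9 from 3.13 to 5.96. Of 14 class I genes 6 were called higher and none lower. The heavy chain H2-K1 had means of 3.77 ± 0.66 (SD, n = 5) and 2.67 ± 0.91 (SD, n = 3), and its other 2 probes were called higher. Without pool 1 (3.11) or pool 2 (3.07) H2-K1 was not called. H2-D1 was higher by its brightest probe (3.60) and near the reference by another (-0.68). Of 20 class II and dendritic genes 5 were higher and 1 lower, with a list median of 0.27 and 7 means below 0. H2-Aa (5.42) and H2-Ab1 (3.89) were higher, while H2-Eb1 (-0.17) and the invariant chain Cd74 (-0.47) were not called. Binding of class I and class II probes to transcripts of close relatives was not tested.

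Genes of cell division lay below the reference on the mean. Of 29 mitosis genes 28 had a mean below 0, with a median of -1.17, and 2 were called lower, Bub1 (-2.11) and Kif2c (-1.73). That share, 6.90% in this list and in the DNA replication list, is no larger than the 7.43% called lower over all genes. All 29 DNA replication genes had a mean below 0, with a median of -0.96, and 2 were called lower, Mcm4 (-1.53) and Cdt1 (-1.72). Mcm4 was not called without pool 1 (-1.53) or pool 3 (-1.48). Top2a, not called with all samples, was called lower without floxed tumour 2 (-1.53). Mki67 was between -1.16 and -0.07 and Top2a between -1.87 and -0.87. Floxed tumour 2 had the smallest deficit in both lists, at -0.69 and -0.55.

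Housekeeping and metabolic genes were closer to the reference. The median of 30 ribosomal protein genes was 0.95, with 6 called higher and 1 lower, Rpl14 (-2.43), and that of 30 respiratory chain genes was 0.37, with 1 called higher, Cox7b (1.51), whose call was lost without any 1 of the pools, at 1.50 to 1.53. Of 25 genes of glycolysis and hypoxia 3 were higher and 2 lower, with a median of 0.08. Hk1 (2.28), a hexokinase, and Egln3 (2.78), an oxygen-sensing hydroxylase, were higher, though none of 4 other Hk1 probes was called (1.25 to 1.69) and Hk1 lost its call as a mean of probes (1.60), and P4ha1 (-2.38), a collagen hydroxylase subunit, was lower. Of 30 genes of cholesterol and fatty acid synthesis 5 (16.7%) were higher and 2 (6.67%) lower. Srebf1 (3.43), which activates fatty acid synthesis genes, was higher, while the desaturase Fads1 (-3.74) was lower.

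Among the smallest ratios were those of developmental regulators and genes of other lineages. Foxf2, a forkhead transcription factor of mesenchyme, gave -5.66, -5.62, -5.41, -5.83 and -5.76 in floxed tumours and -5.80, -5.46 and -5.92 in pools, 51.7-fold below the reference on the mean. The samples were close together and the groups overlapped. Near it in rank were the unnamed transcript 3110039M20Rik (-5.87), the basonuclin Bnc1 (-5.84), Ddx3y (-5.76), the forkhead factor Foxd1 (-5.39), the ribosomal protein-like Rpl39l (-5.58) and the guidance cue Sema3a (-5.52). Also among the 15 smallest were Phex (-5.37), Elavl2 (-5.35), Igf2bp3 (-5.35), Eif2s3y (-5.30), Asb5 (-5.16), the neutrophil chemokine Cxcl5 (-5.16) and the matrix protein Efemp1 (-5.13). Tumour signals for Eif2s3y were not well above background on any array, which puts it at least 36.9-fold below the reference, and those of Bnc1 and Ddx3y were on 4 of 8. Kdm5d, also Y-linked, had a mean of -4.72. Y-linked genes are not carried by females. The Foxf2 tumour signal was well above background on all 8 arrays.

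Of 21 measured imprinted and fetal growth genes 9 were called lower and 1 higher, and 7 had a mean above 0. Igf2bp3, an RNA-binding protein of fetal tissue, gave -5.37, -5.61, -5.14, -5.74 and -5.33 in floxed tumours and -5.36, -5.26 and -5.18 in pools, and its relative Igf2bp2 had a mean of -5.00. The chromatin protein Hmga2 (-4.93), the growth factor Igf2 (-3.36), the neighbouring RNA H19 (-2.47) and the Notch-like Dlk1 (-3.49) were lower as well. Every other probe of Igf2bp3, Hmga2, Igf2, H19 and Dlk1 was also called lower. The imprinted gene Peg3 was not called. It gave 1.11 in floxed tumour 2 and -1.52 to -0.48 in the other 7 samples.

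Hox genes, which set position along the body axis, were below the reference in 28 of 31 measured cases. None was called higher and 14 were called lower, with a median of -1.96. The posterior genes Hoxa10 (-4.10), Hoxa11 (-4.28) and Hoxc10 (-3.86) were lowest. At the other end of the same cluster, floxed tumour 2 stood apart. Hoxa4 gave -1.87, 2.42, -1.70, -1.60 and -1.82 in floxed tumours and -1.44, -1.11 and -0.57 in pools. In floxed tumour 2 Hoxa2, Hoxa3, Hoxa4 and Hoxa5 were above the reference, at 0.57 to 2.42, while each of these genes was below it in every other sample. Without floxed tumour 2, Hoxa2 was called lower at -2.19. Hoxa7 to Hoxa13 of the same tumour were at -4.26 to -0.30. Pool 3 was highest for the middle of the Hoxb cluster, with Hoxb5 at 0.52 where the other samples were between -2.31 and -1.64. Without pool 3, Hoxb5 was called lower at -1.97.

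**Figure D4:**
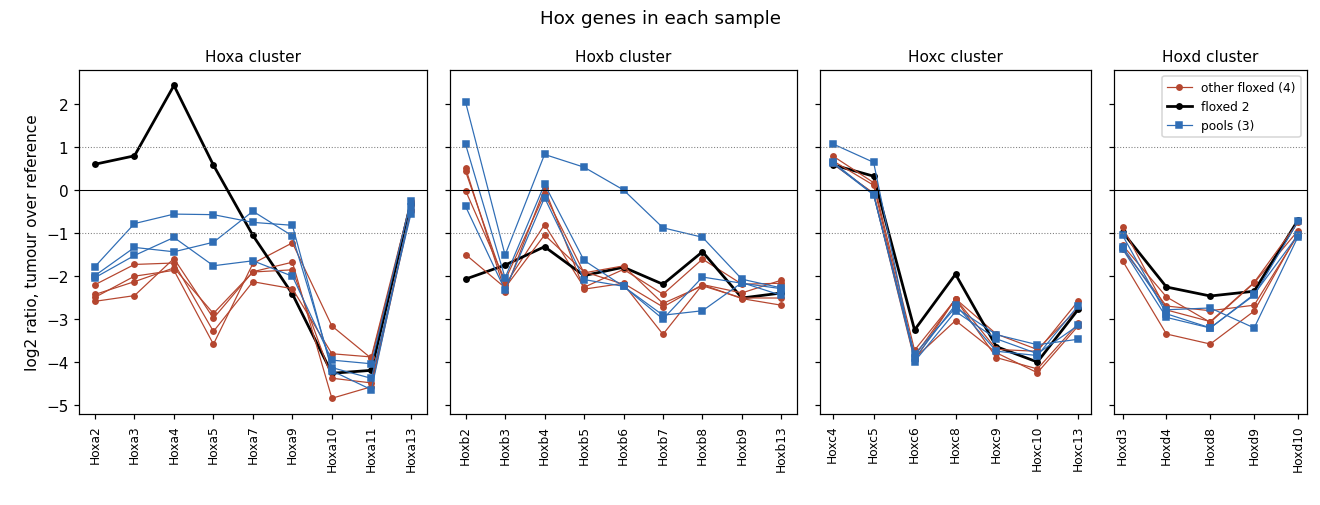
Log2 ratio of tumour over reference (vertical axis) of measured Hox genes in the order of each cluster (horizontal axis); the black line is floxed tumour 2, red lines are the other 4 floxed tumours, blue lines with squares the 3 wild-type pools, and dotted lines mark 2-fold. In floxed tumour 2 Hoxa2 to Hoxa5 lie above the reference, up to 2.42 for Hoxa4, while Hoxa10 lies at -4.26, within the range of the other samples.

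Markers of other lineages split by gene. Of 21 muscle regulators 9 were called lower and none higher, and 3 had a mean above 0. Among the lower were Myog (-1.45), Chrna1 (-3.51) and Pax3 (-2.95). Tumours were not well above background on any array for the myogenic factor Myf5. Myod1, of the same list, lay above the reference on all 8 arrays, at 0.27 to 0.91, and Myf6 had a mean of -0.41. Neither Myod1 nor Myf6 was called. Without pool 1 or pool 3 the calls of Myog (-1.45 and -1.44) and Myf5 (-1.57 and -1.55) were lost. Of 18 hepatocyte genes 3 (16.7%) were higher and 3 (16.7%) lower, beside 7.32% and 7.43% over all genes tested. The fetal albumin-like Afp (-4.19) was lower and Apoe (5.27), an apolipoprotein also made by macrophages, and the plasma protein Ahsg (4.39) were higher. Of 17 gonadal genes 2 (11.8%) were higher and 3 (17.6%) lower, with the hedgehog ligand Dhh at 4.62 and the transcription factor Wt1 at -2.83. Of 16 pluripotency genes 2 were higher and 3 lower, among them Utf1 (2.66), Dppa4 (-2.83) and Dnmt3l (-2.67), and Utf1 was not called without pool 1 (2.58) or pool 3 (2.63), nor with slide as a fixed block (2.66). Nanog (-0.85) and Sox2 (-0.76), which define pluripotent cells, were not called. Neither was well above background in the tumours on any array, and the Sox2 reference signal was so on 7 of 8. With scanner-processed signals both were called lower (-3.04 and -2.66), and Nanog also with plain background subtraction (-2.14).

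Secreted and remodelling genes were split. Of 29 proteases and inhibitors 13 were called lower and 4 higher, with a median of -1.69. Mmp9, a gelatinase, was lower (-3.25), and the membrane protease Mmp15 (4.35), the serpin Serpinb5 (4.13) and the lysosomal Ctsh (6.23) were higher. Serpinb5 had means of 3.29 ± 0.46 (SD, n = 5) and 4.98 ± 1.39 (SD, n = 3). Of 20 Wnt ligands and antagonists 5 were lower, led by Wnt10a (-3.83), and 1 was higher, the antagonist Sfrp1 (3.54). Of 23 complement and acute phase genes 3 were higher and 4 lower, with Cfb at 3.37 and C3 at -2.84. Of 17 keratinocyte genes 3 were lower and 1 higher, Calml3 (3.60). Of 10 blood genes 2 were higher, the globin Hba-a1 (5.26) and the haem enzyme Alas2 (4.57).

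The reference channel held the same RNA on every array, while the tumour channel held different tumours. Over 18291 genes measured in both channels on all 8 arrays, the median SD of the log2 level across arrays was 0.282 in the tumour channel and 0.0732 in the reference channel. It was 0.366 and 0.132 among the higher calls and 0.273 and 0.0583 among the lower calls. Both channels were normalised together before these levels were taken, so tumour differences can enter the reference values. Among the higher calls the most variable were Csn2, the major urinary protein Mup5 (1.06 to 7.09), the secreted salivary-type protein Dcpp2 (1.09 to 6.97), the hormone Cck (1.24 to 6.62) and 2310057J18Rik. The last gave 4.43, 4.58, 5.60, 6.02 and 2.76 in floxed tumours and 7.15, 7.24 and 7.40 in pools, with no overlap between groups (difference of -2.59, limma adjusted p = 0.96). Among the lower calls they were Rbp4, Dcn, Edil3, Hs6st2 and Clmp. Rbp4 and Clmp, like Dcn, were least below the reference in floxed tumours 1 and 2, Rbp4 at -1.43 and -1.91 and Clmp at -2.87 and -2.54. Calls of single genes in this group rest on few samples: Rbp4 was not called without pool 2 (-3.16) or pool 3 (-3.14), and Mup5 was not called without floxed tumour 2, 3, 4 or 5 or pool 1 or 3, at 3.65 to 4.62, with no filter (4.36) or in the authors' deposited table (4.78). Cck lost its call in the authors' deposited table (4.49) and as a mean of probes (2.02), its other probe having a mean of 0.06. Dcpp2 lost it with plain background subtraction (7.85) and in the authors' deposited table (5.54), and 2310057J18Rik with plain background subtraction (9.10).

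Where a called gene had further probes, these mostly took the same side. For the higher calls 814 of 854 other probes (95.3%) had a mean above 0 and 460 (53.9%) were themselves called higher. For the lower calls 758 of 806 (94.0%) had a mean below 0 and 424 (52.6%) were called lower. For genes not called, 77.3% of other probes shared the sign of the brightest probe. An opposite call was found for 3 other probes of higher genes and 5 of lower genes. The probes of higher calls, lower calls and all genes had the same median GC content of 41.7%. Other probes carry the same dyes, so they do not measure dye bias of the labelled RNA itself.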

How the data were processed

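RNA from 5 single floxed tumours and 3 pools was hybridised to 8 two-colour Agilent arrays (design 014868, build mm7). The deposited scanner files hold intensities per spot from Feature Extraction 9.5.3.1, per the file headers, and the authors' deposited table holds 1 log2 value per probe, used as an alternative only. Feature Extraction and RMA are both listed in the submitters' processing notes, in no stated order.

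With limma 3.58.1 in R 4.3.3, backgrounds were corrected by normexp (offset 50) and arrays normalised by loess, with control spots at weight 0 and outlier spots missing. Of 43379 spots and 41174 probes, 33221 probes well above background in either channel on at least 3 of 8 arrays were kept. The brightest kept probe stood for a gene. limma's treat test against 2-fold was adjusted by Benjamini-Hochberg over 22865 genes in each group. The genotype test was limma's moderated test in the same fit. The calling procedure was tested on simulated data, drawn independently for each gene. The simulation held no dye or slide effect, so it cannot show how the calls fare under either. Precision is limited by the number of arrays.

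Members and gene lists were chosen with earlier results of these data known. Some items are not reported here. The text otherwise names the 15 largest and 15 smallest mean ratios, from each list its first 4 measured and 3 farthest genes, Stat3, Erbb2, and the 5 most variable called genes of each direction. A further 15 genes (those just inside or outside the call, Cyb5r2, Dppa1, Ap1m2, Rab25, Foxa1, Esr1, Spint2, Hoxa5, Hoxa7, Hoxa13 and Hoxb5) and Htr5b were chosen after their values were seen. Of 900 list members 820 were measured. Symbols came from RefSeq accessions for 22951 probes and current symbols for 6659, and 11564 kept the file's name. Promoter windows are RefSeq's, from GRCm38.p6, and were used for sequence only. Alternatives covered background, starting signal, normalisation, filter, probe choice, slide, variance model, threshold, the deposited table and leaving out samples singly.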

Additional observations from a re-analysis of the deposited data

Results flagged for a closer look

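In the floxed tumours, 14 of 231 values examined (194 genes and 38 lists, where a test was possible) had 1 tumour far from the other 4 by Dixon's test, which chance alone gives in about 1 of 20 groups. Hoxa5 and Dppa1 were named after their values were seen and the other genes with earlier results known, so this count cannot be read against that rate. Floxed tumour 2 held 7 of them: Hoxa2 (0.59), Hoxa3 (0.79), Hoxa4 (2.42) and Hoxa5 (0.57), the imprinted gene Peg3 (1.11), the splicing regulator Esrp1 (5.41) and Hmga2 (-5.00). These Hox genes are neighbours in 1 cluster and are not independent. Floxed tumour 1 stood above the others in Elf5 (7.41) and Egfr (1.18). Floxed tumour 4 stood apart in Wap (1.88), Dppa1 (0.76), Lef1 (-5.21), Sema3a (-5.79) and the median of the erythroid list (0.75).

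For Stat3 every floxed tumour was below the reference and every pool above it, a difference of -2.05 that did not pass (limma adjusted p = 0.106). For Dppa1 the difference was -2.31 and passed (limma adjusted p = 0.0489).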

How the results depend on the processing

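Against 1674 higher and 1700 lower genes, a 4-fold threshold gave 753 and 557 and a test against 0 gave 5695 and 6239. Leaving out each sample gave 1495 to 1742 higher and 1466 to 1809 lower genes. The other alternatives stayed within 1.5 times, from 1407 (median centring) to 2054 (scanner-processed signals) higher and from 1351 (both channels well above background) to 2494 (scanner-processed signals) lower. The authors' deposited table gave 1792 and 1859, of which 1624 and 1650 were shared. Calls above the reference were 49.6% of all calls, 41.8% with median centring and 57.5% at 4-fold. No called gene passed the genotype test with all samples, with slide as a block or in the authors' deposited table, and leaving out 1 sample gave 0 to 1, the 1 being Htr5b without floxed tumour 4. Over 194 of the genes named, 3376 values kept their call and side, 53 lost the call, 25 gained it and 3 changed sign. The cause of the sign changes was not tested: Acta2 was -0.00708 with scanner-processed signals and -1.66 as a mean of probes, and Egfr -0.0990 with median centring. The list medians of junction and mesenchymal genes ranged from 3.87 to 4.36 and from -2.82 to -2.54. List medians changed sign for the complement (6 of 18), keratinocyte (7), neutrophil (4) and glycolysis (2) lists, and once each for cholesterol, T cell, hepatocyte, pluripotency and Y-linked and Xist genes, the last from -1.13 to 0.92 when both channels had to be well above background. No paired analysis was possible because the replicate numbers of floxed tumours were given in accession order and pair no samples, and slide was used as the block instead (1632 and 1669 calls). Ratios of genes dim in a channel are limited by background.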

Other observations

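Floxed tumour 2 and pool 3 each held genes that no other sample approached. Of 22757 genes with a value on all arrays, 48 were more than 4-fold above every other sample in floxed tumour 2 and 58 in pool 3, against 0 to 14 in the other samples. Floxed tumour 2, floxed tumour 3 and pool 3 carry the same number in their sample descriptions, which was taken as the slide. Floxed tumour 3 had 6 such genes. Whether the shared slide plays a part in these differences was not tested. In floxed tumour 2, Pthlh, which encodes parathyroid hormone-related protein, had a log2 ratio of 6.40 where the others reached 1.44, and Ptgs2, the inducible cyclooxygenase, had -0.87 where the others were at or below -5.53. The hair keratins Krt27 (2.60) and Krt33a (2.55) and the hair keratin-associated genes Krtap8-1 (3.23), Krtap16-7 (3.19) and Krtap6-1 (3.28) were above the reference there, while the highest values of other samples were -0.29, -0.20, 0.33, 0.30 and 0.64.

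In pool 3 the genes were of another kind. Osteopontin, Spp1, had 2.41 where the others were at or below -2.30, and the milk fat globule gene Mfge8 had 3.54 against at most -0.11. The acute phase gene Saa1 (3.39), the mucosal protein Dmbt1 (3.74), the secretory chaperone-like Agr2 (4.43) and the whey acidic family gene Wfdc12 (3.96) were high there as well, against at most -0.95, 0.04, 1.12 and 0.64 elsewhere. These genes were chosen after their values were seen and were not tested. Pool 3 combines 5 tumours, so the number of tumours behind its values is not known.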
